A study of Homo sapiens with 20 samples.

Results

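The MYC network genes were followed in HL60, a human promyelocytic acute myeloid leukemia cell line that is known to carry extra copies of MYC. They are the 10 genes MYC, PVT1, MYCN, MAX, MXD1, MXD3, MXD4, MXI1, MNT and MGA, chosen by symbol from 28051 named genes, together with the 103 ATACseq regions, of 8286 deposited, that lie on chromosome 8 around MYC, from 2.74 Mb before its start to 3.26 Mb after it. Of the 10 genes, 9 passed the filter on low values; MYCN did not. The cells expressed either Cas9 (Cas9 control) or carried a knockout of hexokinase 3 made with CRISPR/Cas9 (HK3-null, 1 knockout label), and each genotype received 1 µM ATRA (all-trans retinoic acid, a differentiation agent for such cells) or 0.01% DMSO for 36 h. RNAseq had 3 libraries in each of the 4 groups and ATACseq had 2. The knockout was made with a lentiviral vector, puromycin selection and limiting dilution, so a difference between genotypes is also a difference between a derived population and its control. The study's methods call the replicates biological, but neither they nor the labels say whether these were separate cultures, so p-values measure the spread between these libraries. ATAC signal was not tested in the ATRA contrast, because every deposited region differs between the genotypes in ATRA.

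MYC is a transcription factor that binds DNA as a dimer with MAX, chiefly at the E-box CACGTG, and raises transcription of genes for ribosome production, nucleotide synthesis and growth. MXD1, MXI1, MXD3, MXD4 and MNT compete for MAX at the same sites and repress through the SIN3-HDAC corepressor, while MGA joins MAX to a Polycomb complex. In maturing myeloid cells MYC is known to give way to MXD1, and HL60 is a classic model of that exchange.

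The core promoters of the network itself were searched for the E-box CACGTG, which reads the same on both strands. A RefSeq promoter (250 bases before to 50 after a transcript start, GRCh38.p14) was given for 8 of the 10 genes, in 13 entries. MYC and PVT1 had no entry, so their promoters were not searched. The motif stood in 2 of these 13 entries, one of MXD4 and one of MNT, and in 7.26% of all 35116 promoters. Both are shown with the E-box in capitals. Only this exact motif was searched for, and binding to it was not tested. MXD4 holds it 238 bases before the start, on the minus strand at chr4:2262322-2262359, and MNT 193 bases before the start, on the minus strand at chr17:2401228-2401273.
MXD4: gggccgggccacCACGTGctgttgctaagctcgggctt
MNT: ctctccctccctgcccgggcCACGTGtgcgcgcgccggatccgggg

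One further sequence is shown because the accessibility over it was lost in HK3-null cells, as described with MGA. MGA has 3 promoter entries. One of them precedes an internal start on the plus strand, at chr15:41660155-41660454. Its first 242 bases, chr15:41660155-41660396, are printed, with the 146 of them inside the affected ATACseq region in capitals.
MGA: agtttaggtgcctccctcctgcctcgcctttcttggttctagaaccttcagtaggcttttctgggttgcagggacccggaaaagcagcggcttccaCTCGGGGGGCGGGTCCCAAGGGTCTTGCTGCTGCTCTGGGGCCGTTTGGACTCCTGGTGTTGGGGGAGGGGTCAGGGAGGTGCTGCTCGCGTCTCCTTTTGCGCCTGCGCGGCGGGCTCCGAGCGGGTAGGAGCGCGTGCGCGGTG

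The deposited RNAseq values were scaled counts whose depth was estimated at 22700000 to 37000000 reads per library. The HK3 transcript itself was no lower under the knockout label: 344, 302 and 346 normalized counts against 90, 65 and 105 in the Cas9 control in DMSO, and 1384, 1285 and 1975 against 1305, 1298 and 1850 in ATRA. A transcript count does not show whether the message encodes protein, so it does not check the label, and HK3-null stands below for the libraries labelled so. The study checked its knockout clones by sequencing genomic DNA and by mass spectrometry. All 8 promyelocyte markers were detected, with summed levels of 611565 to 902827 normalized counts per library. The 5 T cell markers summed to 162 to 190 in HK3-null cells in DMSO and to 11 to 19 in the control, and in ATRA to 42 to 61 against 3 to 8, and none of the 5 was at 0 in every library. The 5 B cell markers, 1 of them at 0 throughout, summed to 148 to 194 in HK3-null cells and to 49 to 108 in the control. The 5 epithelial and fibroblast markers summed to 26 to 465 in the control in DMSO and to 33 to 41 in HK3-null cells. In ATRA they summed to 26 to 97 and to 60 to 68. The 5 erythroid markers, 2 of them at 0 throughout, summed to 20 to 58. Cas9 control DMSO replicate 1 had the most genes above 0, 16750 against at most 15801 in any other library. It had THBS1 at 205, against 5 and 6 in replicates 2 and 3. The part of these markers in the differences between genotypes was not tested. Between the genotypes whole chromosomes stood apart: the median log2 difference in DMSO was 1.09 over the tested genes of chromosome 8, which carries MYC and PVT1, −0.94 on chromosome 15, which carries MGA, and −0.75 on chromosome 5, which carries MXD3, against −0.02 to 0.07 on chromosomes 2, 4, 10, 14 and 17, which carry the others. Among the ATACseq libraries, Cas9 control ATRA replicate 2 had the lowest signal sum, 244488 against 345345 to 390632. In these bulk samples fewer cells of a type and less RNA per cell cannot be told apart.

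MYC transcripts fell in ATRA in both genotypes, further in HK3-null cells, and did not differ detectably between genotypes in DMSO. MYC lies at chr8:127735434-127742951 (GRCh38). In DMSO it had 51419, 42067 and 50378 normalized counts in the Cas9 control and 54095, 45237 and 51576 in HK3-null cells. In every DMSO library it ranked between 53rd and 76th of all detected genes. The 2 groups overlapped, and the log2 difference was 0.07 (SE 0.14, limma adjusted p = 0.697), with a 95% interval of −0.24 to 0.38.

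After ATRA MYC had 12073, 9654 and 12796 normalized counts in the Cas9 control and 7575, 5403 and 7202 in HK3-null cells. All 6 ATRA libraries lay below all 6 DMSO libraries, and the HK3-null ATRA libraries lay below the control ATRA libraries. The decrease was 4.18-fold in the control (log2 difference −2.06, SE 0.14, limma adjusted p = 6.97e-07) and 7.54-fold in HK3-null cells (−2.91, SE 0.14, limma adjusted p = 2.73e-08). Among the 10666 genes that averaged 50 or more normalized counts, these were the 71st and 55th lowest differences. Within ATRA, MYC was 1.72-fold lower in HK3-null cells (95% interval 1.38 to 2.13, limma adjusted p = 0.000608). The test of the difference between the responses gave −0.85 on the log2 scale (SE 0.20, limma adjusted p = 0.0222). Leaving out 1 of the 12 libraries in turn kept it between −0.97 and −0.70 but lost the call in 4 cases: Cas9 control ATRA replicate 1, Cas9 control DMSO replicate 2, and HK3-null DMSO replicates 1 and 3, with adjusted p-values up to 0.0603. With the replicate numbers as a block the limma adjusted p was 3.96e-05.

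**Figure D1:**
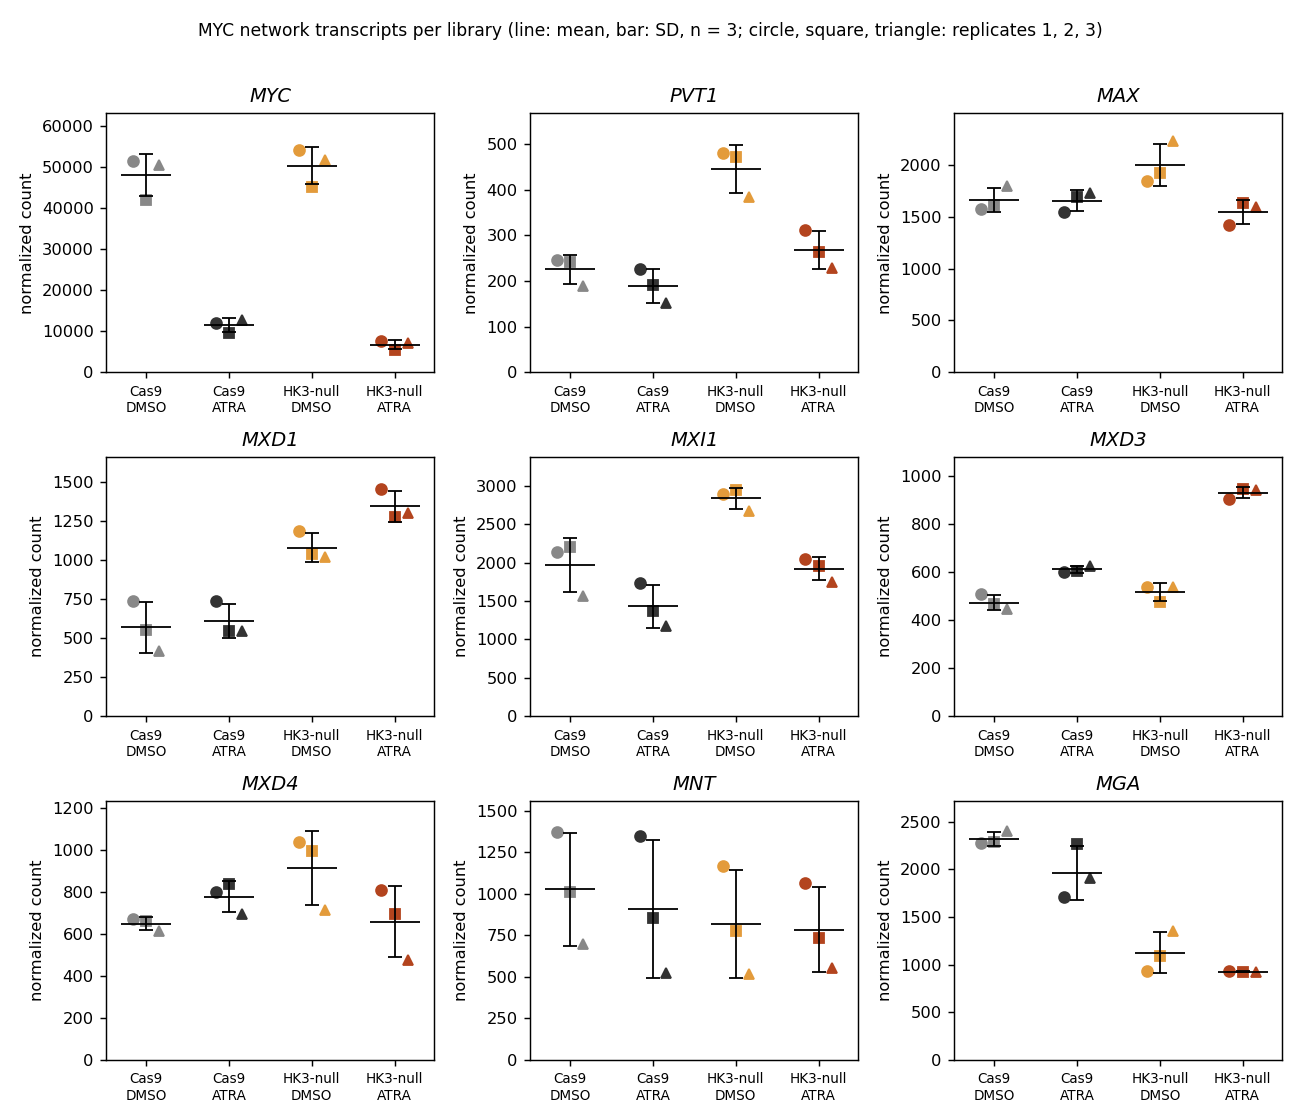
Normalized counts (linear axis from 0) of 9 network genes in each of the 12 RNAseq libraries, by genotype and treatment, with the mean and SD of 3 libraries. MYC sits at or above 42067 in all DMSO libraries and at or below 12796 in all ATRA libraries, MXD1 and MGA separate by genotype, and MNT spreads by replicate number within every group.

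PVT1, the long noncoding RNA gene just downstream of MYC, was higher in HK3-null cells. It had 246, 242 and 189 normalized counts in the control and 480, 473 and 385 in HK3-null cells in DMSO, a 1.98-fold difference (limma adjusted p = 0.000558) in groups that did not overlap. In ATRA the counts were 226, 192 and 152 against 311, 264 and 228, a 1.42-fold difference (limma adjusted p = 0.0276). The ATRA call was lost in 4 of 12 fits without 1 library, with adjusted p-values up to 0.107. ATRA lowered PVT1 in HK3-null cells by 0.74 on the log2 scale (limma adjusted p = 0.0043), and the control difference was −0.26 (limma adjusted p = 0.267, and 0.0185 with the replicate block). The difference between these responses was −0.48 (limma adjusted p = 0.292, and 0.0122 with the replicate block). Once chromosome medians were subtracted the log2 difference of PVT1 between genotypes was −0.11 in DMSO (limma adjusted p = 0.632) and −0.57 in ATRA (limma adjusted p = 0.0142). MYCN, the neural paralog of MYC, had 0 counts in 11 libraries and 1 normalized count in the remaining library.

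MAX, the common partner, differed little. Its normalized counts ran from 1419 to 2230 over the 12 libraries. In DMSO they were 1578, 1610 and 1794 in the control and 1847, 1919 and 2230 in HK3-null cells, a 1.20-fold difference (limma adjusted p = 0.0226) that was lost in 3 of 12 fits without 1 library. In ATRA the log2 difference between genotypes was −0.10 (95% interval −0.29 to 0.09). MAX fell by 0.37 on the log2 scale with ATRA in HK3-null cells (limma adjusted p = 0.00429), whereas the control difference was −0.00493 (95% interval −0.20 to 0.19). These responses were not shown to differ without the replicate block (limma adjusted p = 0.0986, and 0.00463 with the replicate block).

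MXD1, the antagonist induced in myeloid maturation, was higher in HK3-null cells with either treatment. It had 737, 551 and 415 normalized counts in the control and 1183, 1037 and 1015 in HK3-null cells in DMSO, and 735, 543 and 547 against 1455, 1271 and 1301 in ATRA. All 6 HK3-null libraries lay above all 6 control libraries. The difference was 1.95-fold in DMSO (95% interval 1.47 to 2.57, limma adjusted p = 0.000934) and 2.23-fold in ATRA (1.68 to 2.94, limma adjusted p = 0.000218). No fit without 1 library lost either call. ATRA itself gave a log2 difference of 0.12 in the control (95% interval −0.28 to 0.53) and 0.32 in HK3-null cells (−0.09 to 0.72), neither past the threshold without the replicate block. In HK3-null cells the 3 ATRA libraries lay above the 3 DMSO libraries, and the limma adjusted p was 0.176, and 0.0268 with the replicate block. Chromosome 2, which carries MXD1, had a median of −0.00 in DMSO, and subtracting chromosome medians left MXD1 at 0.95.

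MXI1, which is also known as MXD2, was higher in HK3-null cells and lower after ATRA. In DMSO it had 2140, 2199 and 1569 normalized counts in the control and 2889, 2945 and 2675 in HK3-null cells. In ATRA it had 1735, 1371 and 1179 in the control and 2044, 1961 and 1751 in HK3-null cells. The genotype difference was 1.46-fold in DMSO (limma adjusted p = 0.0092) and 1.36-fold in ATRA (limma adjusted p = 0.0239). The decrease with ATRA was 1.38-fold in the control (limma adjusted p = 0.0265) and 1.48-fold in HK3-null cells (limma adjusted p = 0.00812). The call between genotypes in ATRA and that of ATRA in the control were each lost in 4 of 12 fits without 1 library.

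MXD3, an antagonist expressed mainly in dividing cells, rose with ATRA. It had 508, 468 and 445 normalized counts in the control in DMSO and 603, 604 and 628 in ATRA. In HK3-null cells it had 537, 474 and 540 in DMSO and 904, 948 and 945 in ATRA. The increase was 1.29-fold in the control (limma adjusted p = 0.00214) and 1.81-fold in HK3-null cells (limma adjusted p = 2.93e-06), and the responses differed by 0.48 on the log2 scale (SE 0.11, limma adjusted p = 0.0153). The genotypes differed 1.52-fold in ATRA and overlapped in DMSO, where the log2 difference was 0.13 (limma adjusted p = 0.176). Relative to the chromosome 5 median the DMSO difference was 0.86 (limma adjusted p = 4.48e-06).

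MXD4, the antagonist linked to resting and differentiated cells, fell with ATRA in HK3-null cells. It had 671, 661 and 611 normalized counts in the control in DMSO against 800, 835 and 696 in ATRA, and 1036, 994 and 711 against 807, 692 and 474 in HK3-null cells. The values of HK3-null cells overlapped between treatments. The log2 differences were 0.26 in the control (limma adjusted p = 0.295) and −0.49 in HK3-null cells (limma adjusted p = 0.0487), and the test of their difference gave −0.75 (limma adjusted p = 0.115, and 0.00577 with the replicate block). In DMSO MXD4 was 1.39-fold higher in HK3-null cells (limma adjusted p = 0.0485), and in ATRA the log2 difference was −0.27 (limma adjusted p = 0.233, and 0.041 with the replicate block). Its 2 calls were weak: the DMSO call was lost in 9 and the ATRA call in 10 of 12 fits without 1 library.

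MNT, a broadly expressed antagonist, showed no difference past the threshold without the replicate block, and its libraries followed their replicate numbers. It had 1374, 1012 and 695 normalized counts in the control and 1166, 773 and 518 in HK3-null cells in DMSO, and 1349, 855 and 524 against 1062, 732 and 555 in ATRA. The library numbered 1 was the highest and the library numbered 3 the lowest in all 4 groups. The log2 difference between genotypes in DMSO was −0.35 with a 95% interval of −1.22 to 0.52 (limma adjusted p = 0.476), and 0.00202 was the adjusted p with the replicate block. For ATRA in the control the log2 difference was −0.23 (limma adjusted p = 0.688, and 0.0268 with the replicate block).

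Counts per kilobase of the canonical transcript allow the genes to be set side by side. In the Cas9 control in DMSO MYC stood at 12888 ± 1377 normalized counts per kb (SD, n = 3), followed by MAX at 826 ± 58.0, MXI1 at 568 ± 100.3, MXD3 at 444 ± 29.9, MNT at 209 ± 69.0, MGA at 190 ± 5.79, MXD4 at 167 ± 8.30, MXD1 at 102 ± 29.1 and PVT1 at 92.3 ± 13.0. Of the neighbours in this order, MXI1 and MXD3, MNT and MGA, and MXD1 and PVT1 had ranges of mean ± SD that overlapped. Per kb, the ratio of MYC to the sum of the 4 MXD genes was 9.88, 8.42 and 12.3 in the control in DMSO and 8.0, 7.0 and 8.43 in HK3-null cells in DMSO. In ATRA it was 2.31, 2.03 and 2.85 in the control and 1.07, 0.78 and 1.11 in HK3-null cells. The 6 ATRA libraries were lower than all 6 DMSO libraries, and the 3 HK3-null ATRA libraries were the lowest of all 12. The ratio was not tested.

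MGA, the largest protein of the network, was lower in HK3-null cells. It had 2272, 2282 and 2399 normalized counts in the control and 934, 1085 and 1354 in HK3-null cells in DMSO, and 1711, 2270 and 1914 against 927, 922 and 917 in ATRA. No HK3-null library reached any control library. The decrease was 2.09-fold in DMSO (95% interval 1.72 to 2.52, limma adjusted p = 2.63e-05) and 2.12-fold in ATRA (1.75 to 2.56, limma adjusted p = 1.88e-05). The tested genes of chromosome 15 had a median log2 difference of −0.94 in DMSO. Relative to that median MGA differed by −0.12 (limma adjusted p = 0.438). With ATRA in HK3-null cells the log2 difference of MGA was −0.27 (limma adjusted p = 0.0979, and 0.0472 with the replicate block).

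Accessibility over an internal MGA start was lower in HK3-null cells. All deposited regions were selected for differing between the genotypes in ATRA. The size of a region's difference can therefore not be set against that of the transcript. The region at chr15:41660251-41660960, which overlaps that promoter entry by 204 bases in all and holds a further entry in full (300 bases), had signals of 138.7 and 136.1 in the control and 2.67 and 1.96 in HK3-null cells in DMSO. In ATRA the signals were 123.2 and 90.3 against 4.22 and 2.47. The DMSO difference was −5.39 on the log2(signal + 1) scale (SE 0.38, limma adjusted p = 2.99e-14), the 11th lowest of 8286 regions. The 606 regions of chromosome 15 had a median of −1.63. Another region inside MGA, at chr15:41730496-41730988, fell from 69.2 and 59.7 to 24.6 and 11.1 (−1.89, limma adjusted p = 2.06e-05), close to that median. No deposited region overlapped the first MGA promoter at chr15:41620974-41621273.

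The Polycomb partners of MGA were more often higher than lower in HK3-null cells in DMSO. Of the 12 tested genes of PRC1.6, the complex that MGA anchors, 7 were higher and 3 lower in HK3-null cells in DMSO, with a median log2 difference of 0.29, against 27.9% and 27.1% of all genes. E2F6, its second DNA-binding subunit, rose by 0.62 and the histone-binding adaptor RYBP by 0.71, while the E2F partner TFDP1, on chromosome 13, fell by 0.80 on the log2 scale. L3MBTL2 and CBX3, readers of histone marks, were the other lower genes, at −0.31 and −0.25. With chromosome medians subtracted 6 were higher and 4 lower in DMSO, with a median of 0.18, and with the replicate block 8 were higher and 3 lower. Between genotypes in ATRA 5 were higher and 4 lower (median 0.082), against 29.6% and 29.5% of all genes. Those counts became 4 and 4 with chromosome medians subtracted. With ATRA 8 of 12 fell in HK3-null cells and 6 in the control, against 25.1% and 21.3% of all genes, and 1 gene, RING1, rose in each. The count of 8 was 6 with chromosome medians subtracted, and 5 with no filter on low values or without HK3-null DMSO replicate 2, HK3-null ATRA replicate 2 or HK3-null ATRA replicate 3. TFDP2 differed in its ATRA response by −0.76 (limma adjusted p = 0.00471).

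Counted over the members, 6 of the 9 tested genes passed between genotypes in DMSO (5 higher, 1 lower), where 55.0% of all 13256 genes passed. In ATRA 6 of 9 passed (4 higher, 2 lower) against 59.1%. ATRA against DMSO gave 3 of 9 in the control (1 higher, 2 lower) against 41.6% and 6 of 9 in HK3-null cells (1 higher, 5 lower) against 49.0%. These shares lie near the background. At least 2-fold changes that passed numbered 1 of 9 (MGA) and 2 of 9 (MXD1 and MGA) between genotypes in DMSO and ATRA, against 19.3% and 21.3% of all genes, and 1 of 9 (MYC) with ATRA in each genotype, against 9.63% and 14.1%. The difference of responses passed for 2 of 9, MYC and MXD3, against 9.12%, and neither reached 2-fold, as 2.79% of all genes did. With the replicate block the counts were 7, 7, 5, 8 and 5. The median log2 difference of the 9 genes was 0.26, −0.10, −0.23 and −0.37 in the 4 comparisons in this order, where the median over all genes was at most 0.014.

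Between genotypes MYC lay below most tested genes of chromosome 8. Of the 36 genes listed in the interval around MYC, 12 were tested. Without MYC the other 11 had a median log2 difference of 1.32 between genotypes in DMSO, with 10 higher and 1 lower, and the 421 tested genes on the rest of chromosome 8 had a median of 1.09. In ATRA these medians were 1.36, with 8 higher and 1 lower, and 1.06. Among all 433 tested genes of the chromosome MYC was the 25th lowest in DMSO and the 12th lowest in ATRA. Relative to the chromosome median MYC differed by −1.02 in DMSO (SE 0.14, limma adjusted p = 0.000127) and by −1.85 in ATRA (SE 0.14, limma adjusted p = 1.02e-06). MYC was not alone in this. By the same measure NSMCE2 was lower in DMSO (−0.69, limma adjusted p = 3.47e-05). In ATRA CASC11 (−1.19, limma adjusted p = 0.00145) and PVT1 (−0.57, limma adjusted p = 0.0142) were lower. LOC101927657 was lower with either treatment, whereas SQLE, KIAA0196 and ASAP1 were higher with either treatment, CCDC26 in DMSO and FAM49B in ATRA. The call on MYC between genotypes in DMSO therefore depends on whether the level of the chromosome is taken out.

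**Figure D2:**
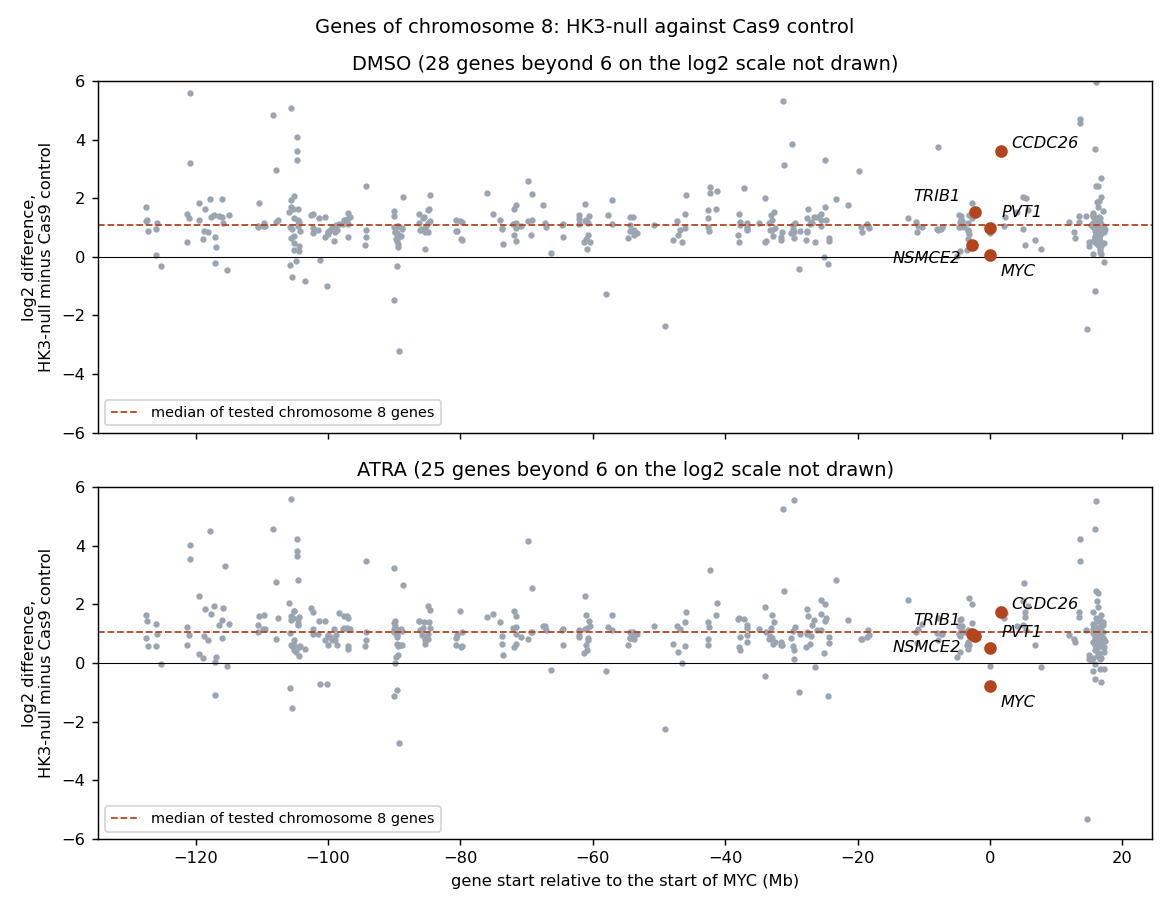
Log2 difference between HK3-null and Cas9 control (y axis) of tested chromosome 8 genes by the distance of their annotated start from MYC (x axis, Mb), in DMSO and in ATRA, with the chromosome median dashed. Most points sit above 0 around the median of each panel (1.09 in DMSO), while MYC sits at 0.07 in DMSO and at −0.78 in ATRA.

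The neighbours on the centromere side included metabolic and signalling genes. SQLE, an enzyme of cholesterol synthesis, had 1450, 1417 and 1704 normalized counts in the control and 4715, 5022 and 6849 in HK3-null cells in DMSO, a 3.59-fold difference. KIAA0196, a subunit of the WASH complex on endosomes, was 2.50-fold higher, and NSMCE2, a SUMO ligase of the SMC5/6 complex, 1.32-fold higher. TRIB1, a pseudokinase that drives degradation of the myeloid factor CEBPA, had 3056, 1924 and 1822 against 7669, 5398 and 6138, a 2.87-fold difference, and rose 2.19-fold with ATRA in the control (limma adjusted p = 0.00136). LOC101927657 was the one lower gene: it had 739, 767 and 543 normalized counts in the control in DMSO and 0 in all 3 HK3-null libraries, at least 228-fold lower against a floor of 3 normalized counts per library. In ATRA it had 742, 583 and 436 in the control and 0, 0 and 1 in HK3-null cells.

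Close to MYC and beyond it the neighbours were again higher in HK3-null cells in DMSO. CASC11, a noncoding gene next to the MYC start, had 25, 24 and 23 normalized counts against 46, 43 and 39, and fell with ATRA in HK3-null cells to 13, 16 and 20. CCDC26, a noncoding gene whose introns hold a known blood cell enhancer cluster of MYC, had 32, 17 and 14 against 273, 231 and 215 in DMSO, and 13, 15 and 9 against 48, 40 and 33 in ATRA. The CCDC26 difference was 12.1-fold in DMSO and 3.31-fold in ATRA. Its responses to ATRA differed by −1.87 on the log2 scale (limma adjusted p = 0.0231, and up to 0.0657 in alternative fits). LINC00977 had 0, 1 and 0 against 14, 7 and 17 in DMSO, too few counts for a fold (limma adjusted p = 0.0315, and 0.0538 with the replicate block). FAM49B, a regulator of RAC1, rose with ATRA by 1.39-fold in the control and 1.93-fold in HK3-null cells, a difference of responses of 0.48 (limma adjusted p = 0.0145). ASAP1, a GTPase-activating protein for ARF proteins, was 2.58-fold higher in HK3-null cells in DMSO.

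In the ATACseq data, 103 of the 1154 deposited chromosome 8 regions lay in the same interval, and 83 passed the filter on low signal. In DMSO 59 of the 83 were called higher and 11 lower in HK3-null cells, where 42.7% and 43.9% of all 6214 tested regions were (86.6% in either direction). On the rest of chromosome 8, 709 of 825 were higher and 2 lower. The lower regions were thus 13.3% around MYC and 0.242% elsewhere on the chromosome. With the median of the rest of chromosome 8 subtracted, 20 were called higher and 17 lower around MYC. Of the 103 regions 102 had the same sign in DMSO as in ATRA, the contrast that the deposited regions were selected on. So did 1041 of 1051 on the rest of chromosome 8 and 8141 of all 8286 regions.

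The lower regions fell into a few places. The one nearest MYC, at chr8:127685212-127685653 and 49781 bases before the gene, had signals of 110.2 and 128.8 in the control and 64.7 and 57.0 in HK3-null cells in DMSO (−0.96, limma adjusted p = 0.0038). In ATRA the signals were 188.2 and 122.8 against 73.3 and 47.9. No region overlapped MYC itself. Between 1.25 and 1.36 Mb past the MYC start 5 neighbouring regions were all lower, such as chr8:129052985-129053441, where the mean signal was 167.2 in the control and 37.8 in HK3-null cells (−2.12). The region at chr8:126321828-126322556, listed for LOC101927657, had means of 500.1 and 170.2.

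The higher regions included those at TRIB1 and PVT1. All 4 regions that list or overlap TRIB1 were called higher, and the one with the highest signal, chr8:125429216-125430898, had means of 1045 in the control and 2303 in HK3-null cells. All 6 regions within PVT1 had a higher mean in HK3-null cells in DMSO, but 1 of the 4 tested was called: chr8:127831560-127831974, with mean signals of 8.62 and 55.7 (2.57, limma adjusted p = 4.34e-05). MXD1, MXD3, MXI1, MAX, MNT, MXD4 and MYCN had no deposited region over the gene.

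**Figure D3:**
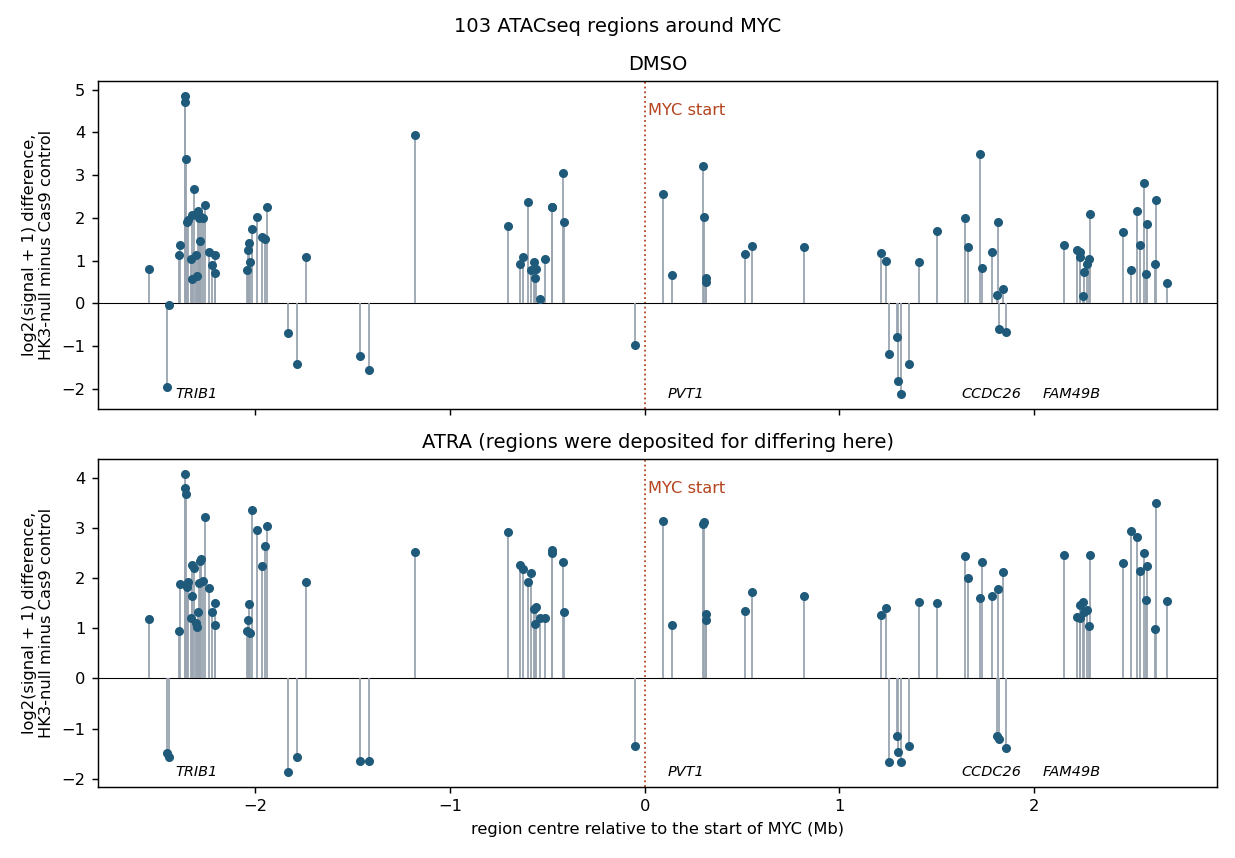
Difference in mean log2(signal + 1), HK3-null minus Cas9 control (y axis), of 103 ATACseq regions by the distance of their centre from the MYC start (x axis, Mb), in DMSO and in ATRA. Most regions sit above 0, and the 5 regions between 1.25 and 1.36 Mb and the one at −0.05 Mb sit below it in both panels.

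The 2 regions with the highest signal over CCDC26 had less signal in ATRA than in DMSO in both genotypes, with no overlap between the libraries of either genotype. Of all 10 regions listed for CCDC26, 6 had less signal in ATRA in the control and 5 in HK3-null cells. At chr8:129591365-129592753 the signals in DMSO were 934 and 768 in the control and 548 and 516 in HK3-null cells, and in ATRA they were 255 and 197 in the control and 65.1 and 106.0 in HK3-null cells. The ratio of DMSO to ATRA means was 3.76 in the control and 6.22 in HK3-null cells. At chr8:129554051-129554974 the signals in DMSO were 748 and 593 in the control and 470 and 422 in HK3-null cells. In ATRA they were 372 and 314 against 95.1 and 202.3, with ratios of 1.95 and 3.00. A neighbouring region at chr8:129547670-129548197 went the other way in the control, from 241 and 239 to 498 and 355, and had 287 and 260 in DMSO and 155 and 228 in ATRA in HK3-null cells. In the 2 regions with the highest signal the 2 HK3-null ATRA libraries were the lowest of the 8. Every deposited region differs between the genotypes in ATRA, so for a lower region this order in ATRA follows from the selection. The larger ratios in HK3-null cells use the same ATRA values and are not independent of that selection. Leaving out the shallow library Cas9 control ATRA replicate 2, which was decided after the data had been seen, the control ratios were 3.34 and 1.80. These treatment ratios have no test, and over all 8286 regions the median log2 difference with ATRA was −0.23 in the control and −0.11 in HK3-null cells.

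**Figure D4:**
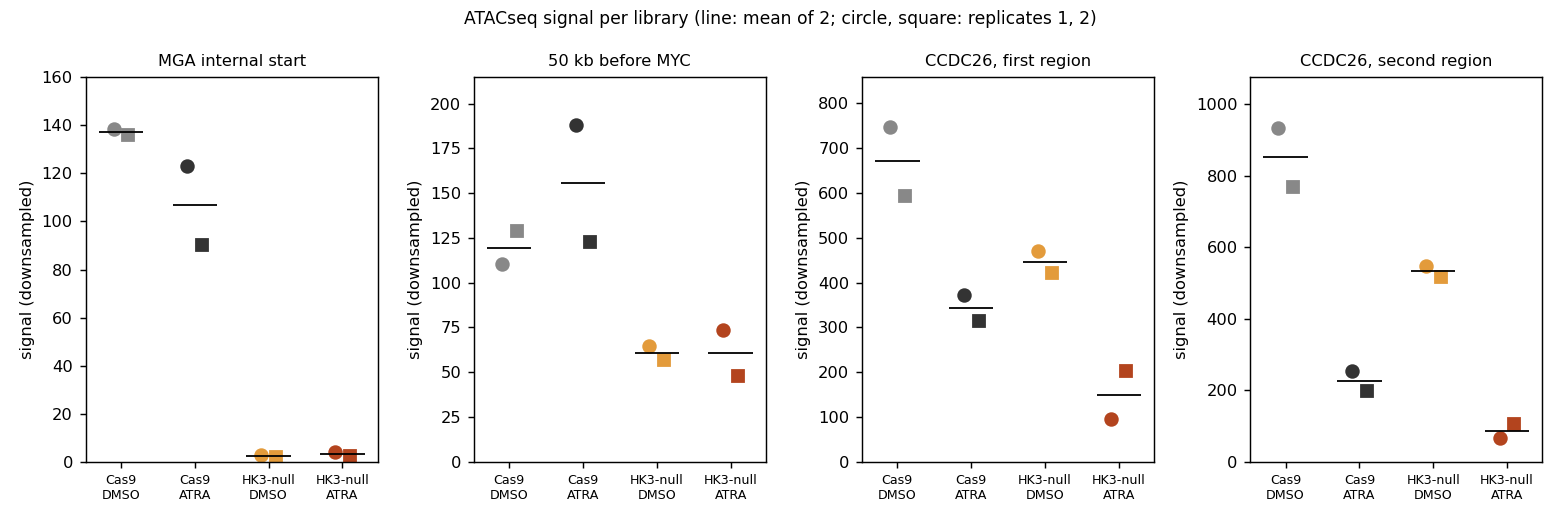
ATACseq signal per library (linear axis from 0, downsampled reads) with the mean of 2 libraries, for the region over the internal MGA start, the region 49781 bases before MYC, and 2 regions over CCDC26 (chr8:129554051-129554974 first, chr8:129591365-129592753 second). The MGA region is at or below 4.22 in all HK3-null libraries, and both CCDC26 regions are lowest in HK3-null ATRA. All deposited regions were selected for a genotype difference in ATRA.

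Genes known as induced by MYC were lower in ATRA, as MYC was. They were also mostly lower in HK3-null cells in DMSO, where MYC did not differ detectably unless the chromosome median was subtracted. Of 67 tested, 62 fell and 1 rose with ATRA in the control, with a median log2 difference of −0.65, and 60 fell and 3 rose in HK3-null cells, with a median of −0.84. Of all tested genes 21.3% and 25.1% fell, with medians of 0.00 and 0.01. Between genotypes 41 were lower and 3 higher in DMSO (median −0.30) and 52 lower and 2 higher in ATRA (median −0.58), where 27.1% and 29.5% of all genes were lower. Subtracting chromosome medians left 43 and 54 lower, and the replicate block gave 52 and 57 lower. The 3 higher genes in DMSO were BOP1, BYSL and MCM4, and in ATRA BOP1 and MCM4. BOP1 and MCM4, a ribosome factor and a replication helicase subunit, lie on chromosome 8.

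The induced genes differed in size of response. TERT, the catalytic subunit of telomerase, had 995, 803 and 946 normalized counts in the control in DMSO and 157, 155 and 119 in ATRA. In HK3-null cells TERT went from 1148, 967 and 995 to 65, 57 and 25, and the responses differed by −1.84 (limma adjusted p = 0.0165). SRM, the spermidine synthase, fell by 1.19 in the control and by 1.65 in HK3-null cells on the log2 scale. RRP9, a small nucleolar RNP protein, fell by 1.33 and by 1.70, and TFRC, the transferrin receptor, by 1.47 and by 1.35. NPM1, a nucleolar chaperone, was lower in HK3-null cells in DMSO at 50816, 50820 and 51726 against 120460, 127197 and 108212, and NOP16, a ribosome assembly factor, at 3612, 3662 and 3429 against 6901, 6926 and 6739. Both lie on chromosome 5, whose median was −0.75.

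CCND2, a D-type cyclin, went its own way. It had 5509, 5314 and 4331 normalized counts in the control and 138, 118 and 139 in HK3-null cells in DMSO, and rose with ATRA in HK3-null cells while it fell in the control, a difference of responses of 1.20 (limma adjusted p = 0.00302). E2F2, an E2F factor of the cell cycle, was the one induced gene that rose with ATRA in the control, at 1.31. In HK3-null cells E2F2, CCND2 and the helicase subunit MCM5 rose. Over the 67 genes 56 had a lower response in HK3-null cells than in the control, as did 51.9% of all genes. The difference of responses passed for 7 lower and 1 higher of the 67, where 4.64% and 4.48% of all genes passed. With the replicate block 28 lower and 3 higher passed.

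**Figure D5:**
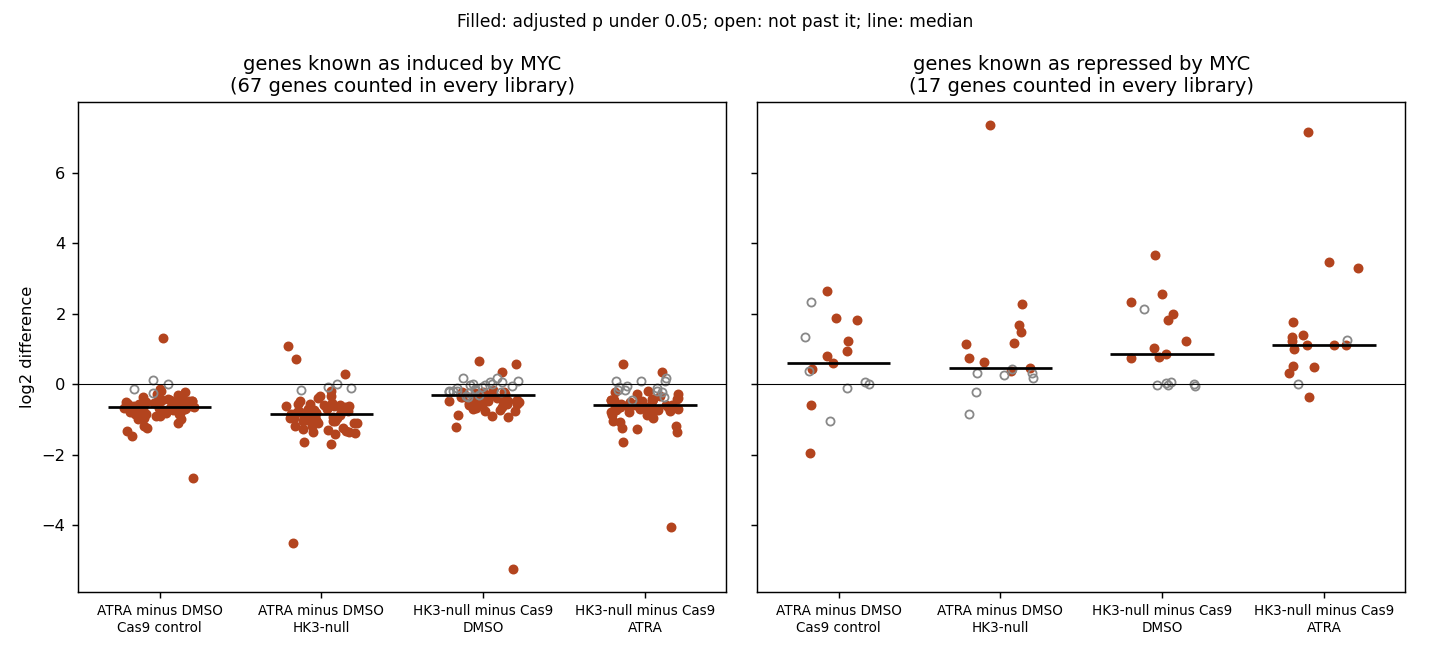
Log2 differences (y axis) of genes known as induced by MYC (67 genes) and as repressed by MYC (17 of 20, without 3 that have a library at 0) in 4 comparisons, with medians as lines and filled points past the adjusted threshold of 0.05. The induced genes sit mostly below 0, lowest with ATRA in HK3-null cells, and the repressed genes sit mostly above 0.

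Genes known as repressed by MYC, most of them inhibitors of the cell cycle, moved the other way. Of 20 tested, 8 rose and 2 fell with ATRA in the control, and 12 rose in HK3-null cells, where 20.3% and 24.0% of all genes rose. Between genotypes 10 were higher and 2 lower in DMSO and 14 higher and 1 lower in ATRA, against 27.9% and 29.6% of all genes higher. The medians were 0.71 and 0.54 with ATRA and 0.82 and 1.12 between genotypes. BTG2, an antiproliferative gene, had 48, 24 and 22 normalized counts in the control and 432, 464 and 250 in HK3-null cells in DMSO, and 116, 103 and 105 against 1233, 1550 and 857 in ATRA. CCNG2, an atypical cyclin of arrested cells, had 52, 36 and 68 against 298, 291 and 290 in DMSO. CDKN2B, a CDK4 inhibitor, had 12, 6 and 6 against 30, 24 and 27. THBS1, an adhesion glycoprotein, had 15296, 13285 and 11043 in HK3-null cells in ATRA and 66, 84 and 140 in the control. CDKN1C and PDGFRB were the 2 lower genes in DMSO, with at most 16 normalized counts in any DMSO library. Both were also among the 12 that rose with ATRA in HK3-null cells. CDKN1C went from 1, 1 and 0 to 5, 7 and 6, and PDGFRB from 0, 0 and 1 to 1, 2 and 1. A 0 entered the fit as −9.97, so these calls rest on very few counts. KLF4 and GADD45B fell with ATRA in the control, and TXNIP was the lower gene between genotypes in ATRA. Values for KLF4 were 20, 14 and 10 in DMSO and 4, 3 and 4 in ATRA.

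The E-box relatives of the network were counted in the same way. Of 11 tested, 3 were higher in HK3-null cells in DMSO (median log2 difference 0.19), a share near the 27.9% of all genes, and 6 in ATRA (0.28), against 29.6%. In DMSO 1 was higher with no filter on low values, and in ATRA 7 were higher and 1 lower with the replicate block, and 1 lower without Cas9 control ATRA replicate 3. In DMSO the 3 were TFEB, TFEC and MLXIPL. The MLXIPL call in DMSO rests on 0 counts in the control and at most 2 in HK3-null cells, because a 0 entered the fit as −9.97. TFEB, a regulator of lysosome genes, had 11, 6 and 24 normalized counts in the control in DMSO and 92, 184 and 196 in ATRA, and 27, 40 and 58 and 353, 704 and 850 in HK3-null cells. MLXIPL, a glucose-sensing factor, went from 0 in all 3 control DMSO libraries to 367, 332 and 448 in ATRA, and from 2, 1 and 0 to 1234, 1243 and 1290 in HK3-null cells. TFE3, a relative of TFEB, was 0.78 higher in HK3-null cells in ATRA, and TFEC, another, was 0.52 higher in DMSO. MYCL, another MYC paralog, had at most 12 normalized counts. It was among the 6 higher in ATRA, at 6, 8 and 0 in HK3-null cells against 0 in all 3 control libraries. It was also among the falls with ATRA in the control, from 3, 1 and 1 in DMSO. Both MYCL calls rest on the value written for 0. With ATRA 5 rose and 3 fell in the control, against 20.3% and 21.3% of all genes, and 7 rose and 3 fell in HK3-null cells, against 24.0% and 25.1%. The falls included MITF and TFAP4.

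Of 14 coactivators and partners of MYC, 4 were lower in HK3-null cells in DMSO (median −0.095), against 27.1% of all genes, and 5 lower and 1 higher in ATRA (−0.022), against 29.5% and 29.6%. In DMSO 7 were lower with the replicate block and 2 without HK3-null DMSO replicate 2. In ATRA 3 were lower with no filter on low values, in a fit of the 2 groups compared, or without Cas9 control ATRA replicate 1 or 2 or HK3-null ATRA replicate 3, and 2 were higher without Cas9 control ATRA replicate 2. The 4 were KAT2A, RUVBL1, WDR5 and PAF1, and the higher one in ATRA was the kinase CDK9. With ATRA 5 fell and 1 rose in the control, against 21.3% and 20.3% of all genes, and 5 fell and 2 rose in HK3-null cells, against 25.1% and 24.0%. The latter 2 became 1 with no filter on low values, with chromosome medians subtracted, or without HK3-null DMSO replicate 1 or 2 or HK3-null ATRA replicate 2 or 3. KAT2A, a histone acetyltransferase, had 4086, 3643 and 3985 normalized counts in the control in DMSO and 3189, 2820 and 3004 in ATRA, and 3402, 3165 and 3377 and 1648, 1523 and 1646 in HK3-null cells. KAT2A and the paired ATPases RUVBL1 and RUVBL2 differed in their response to ATRA by −0.67, −0.45 and −0.52 (limma adjusted p = 0.000831, 0.0186 and 0.00705).

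Of 18 regulators of MYC protein stability, 6 were lower and 2 higher in HK3-null cells in DMSO, with a median of −0.071, against 27.1% and 27.9% of all genes. With the replicate block 6 were higher and 6 lower. SKP2, a ubiquitin ligase subunit for MYC, fell by 1.27 and the phosphatase subunit PPP2CA by 1.29 on the log2 scale, both on chromosome 5. FBXW7, the ligase subunit that marks MYC for degradation, was 0.35 higher, and KIAA1524, an inhibitor of that phosphatase, had 1163, 1242 and 1152 normalized counts in the control in DMSO and 2645, 2940 and 2956 in ATRA, with 1523, 1574 and 1497 in HK3-null cells in DMSO. Of 15 SIN3-HDAC subunits, 5 were lower and 4 higher in DMSO, with a median of 0.0035, against 27.1% and 27.9% of all genes. With chromosome medians subtracted 2 were lower and 3 higher, and 2 were higher with quantile normalization, with no filter on low values or without HK3-null DMSO replicate 3. HDAC2, a histone deacetylase on chromosome 6, was 1.17 higher, and SIN3A, the scaffold on chromosome 15, was 0.86 lower, each on a chromosome with a median in the same direction (0.53 and −0.94).

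By Pearson correlation of log2 values over the 12 libraries, among 10666 genes, the 5 genes most like MYC were DESI1 (0.998), XPOT (0.995), FKBP4 (0.993), PDCD11 (0.991) and NARS2 (0.991). XPOT exports transfer RNA, PDCD11 acts in ribosome assembly and NARS2 charges mitochondrial transfer RNA. Their log2 differences with ATRA were −0.57 to −1.44 in the control and −0.94 to −1.90 in HK3-null cells. The 5 genes most like MXD1 were SLC38A2 (0.980), ZNF124 (0.977), GPCPD1 (0.974), ABCA5 (0.974) and PPP1R15A (0.972), with genotype differences in DMSO of 0.45 to 4.65. These libraries form 4 groups, so the correlations describe shared group means.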

How the data were processed

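RNAseq (12 libraries) and ATACseq (8 libraries) of HL60 cells were analysed from the deposited tables, with groups taken from the labels. The authors deposited log2 values of scaled whole read counts per gene; 2 to the power of each value was whole within a relative tolerance of 0.0001, and a count of 0 was written as -9.97. The submitters' processing notes name DESeq2, MACS2 and GRCh38, and the RNA aligner and counter were not given in the sources used here. The study's methods describe RPKM values, which these are not. The authors deposited ATAC signal per merged region after unique alignment, removal of duplicates and downsampling to the smallest library. Rows without a gene name (330 of 28381) held at most 0.00926% of counts and were left out. Reads per library were estimated from the spacing of low values.

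Differences were fitted with limma 3.58.1 (R 4.3.3) on the log2 values of genes with a group mean above 3 (13256 genes), 4 groups in 1 fit, with Benjamini-Hochberg adjustment and a threshold of 0.05. ATAC regions over the 25th percentile of mean signal (6214 regions, signal above 17.1) were fitted as log2(signal + 1) and called at an adjusted p below 0.05 and at least 1.5-fold. Both fits were checked on simulated data. RNAseq libraries with the same replicate number deviated together (18 pairs, r from 0.187 to 0.630, against -0.641 to 0.282 for different numbers), so the numbers were taken to pair the libraries. The main fit did not use this pairing. The fit with the replicate block is given for every network gene whose call it changed, and for some other genes and counts. ATACseq numbers did not pair (12 pairs, r from -0.209 to 0.0539).

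The genes and lists were chosen with earlier results of these data known. Named were all 10 genes, tested genes and regions of the chromosome 8 interval, from each list up to 3 passing genes with the largest change in each comparison and any count of 5 or fewer, and the 5 genes most like MYC and MXD1; E2F2, CDKN2B, FBXW7, BOP1, BYSL, MCM4, MCM5 and KLF4, where outside this rule, were chosen after their values were seen. Alternatives were the replicate block, quantile normalization, a pseudocount, no filter, no trend, subtraction of chromosome medians, fits on 2 groups, and leaving out each library. Protein sequences were not used here.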

Additional observations from a re-analysis of the deposited data

Results flagged for a closer look

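These results stood out because the response to ATRA differed between HK3-null cells and the Cas9 control by the limma interaction test, each as the HK3-null minus the control log2 difference. Among the network genes MYC differed by −0.85 (SE 0.20, limma adjusted p = 0.0222) and MXD3 by 0.48 (SE 0.11, limma adjusted p = 0.0153). Near MYC the differences were 0.57 for NSMCE2 (limma adjusted p = 0.0117), −1.87 for CCDC26 (limma adjusted p = 0.0231) and 0.48 for FAM49B (limma adjusted p = 0.0145). NSMCE2 fell with ATRA in the control and rose in HK3-null cells, at −0.35 and 0.22. Among known targets and cofactors of MYC they were 1.20 for CCND2 (limma adjusted p = 0.00302), −1.84 for TERT (limma adjusted p = 0.0165), −0.67 for KAT2A (limma adjusted p = 0.000831), −0.45 for RUVBL1 (limma adjusted p = 0.0186) and −0.52 for RUVBL2 (limma adjusted p = 0.00705). TFDP2, an E2F partner in the complex of MGA, differed by −0.76 (limma adjusted p = 0.00471). Of all tested genes 9.12% passed the same test. In alternative fits the limma adjusted p reached 0.101 for MYC and 0.0657 for CCDC26, so these 2 calls depend on the processing.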

How the results depend on the processing

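With the replicate block, 5 members passed for ATRA in the Cas9 control and 5 in the interaction, against 3 and 2 without it, and the interaction passed for 2898 genes against 1209. With no filter on low values 1 member, MXD3, passed in the interaction and MYC did not. Quantile normalization gave MAX a log2 difference of 0.024 for ATRA in the control, where the main fit gave −0.0049. Subtracting chromosome medians turned the sign of the genotype difference in DMSO of MYC (−1.02), PVT1 (−0.11), NSMCE2 (−0.69), CASC11 (−0.26) and FAM49B (−0.030), of that in ATRA of PVT1 (−0.57), NSMCE2 (−0.094) and TRIB1 (−0.15), and of MAX for ATRA in the control (0.0067). Subtracting the median of the rest of chromosome 8 left 20 ATAC regions higher and 17 lower around MYC. The cause of these changes was not tested beyond the subtraction itself.

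Leaving out 1 library in turn gave these ranges across a change of sign. For HK3-null against control they were −0.021 to 0.15 for MYC in DMSO and, in ATRA, −0.51 to 0.17 for MNT, −0.13 to 0.22 for HK3 and −0.27 to 0.038 for CASC11. For ATRA in the control they were −0.041 to 0.052 for MAX, −0.082 to 0.33 for MXD1 and −0.56 to 0.12 for MNT, and in HK3-null cells −0.33 to 0.26 for MNT. For the interaction they were −0.016 to 0.40 for MXD1, −0.23 to 0.056 for MXI1, −0.16 to 0.52 for MNT and −0.15 to 0.12 for MGA, and 1 to 2 members passed. ATAC regions called around MYC ranged from 43 to 62 higher and from 8 to 11 lower. With 3 RNAseq and 2 ATACseq libraries a group, small differences such as that of MAX were at the limit of what could be called.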
